A study of Mus musculus with 10 samples.

Results

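Accessible sites in the first introns of protein-coding genes were examined in fibroblasts that depend on a degradable form of ASH2L, a core subunit of the COMPASS/KMT2 complexes that methylate histone H3 at lysine 4. A site was included when it lay on chromosomes 1 to 19 of mm10, was more than 1 kb away from every annotated transcript start, and had its middle in the first intron of the longest protein-coding transcript of a gene. This applied to 14284 of the 153924 sites listed for the experiment, corresponding to 9.52% of the 150083 sites on these chromosomes and to 11.5% of the 124339 sites outside the windows around transcript starts. The rule uses only positions and no measured signal.

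The sites were identified by ATAC-seq, in which the Tn5 transposase cuts accessible chromatin and inserts sequencing adapters. The cells were iMEF, immortalized mouse embryo fibroblasts, transduced with a lentiviral construct that encodes human ASH2L fused at its N-terminus to FKBP12 (F36V) and 2 HA tags. In all groups, controls included, exon 4 of the floxed endogenous Ash2l alleles had been deleted by Cre-ER, and the cells descend from 1 selected clone, NG3. Of the 10 libraries, 2 were from cells without dTAG-13, called untreated here, for which the methods name ethanol as the control. A further 2 each were from cells that had received dTAG-13, which directs the fusion protein to degradation, for 30 min, 4 h, 8 h and 24 h. The analysed list pools all libraries and holds positions only. Therefore, untreated and treated cells were not compared here, the sequencing depth behind a site is unknown, and the intervals given below cover only the counting of sites, which are not replicates of a condition.

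First introns are the part of a gene that RNA polymerase II enters directly after the first exon, and they are usually longer than the introns that follow. They are known to harbour enhancers and other regulatory elements, which are bound by transcription factors and appear as accessible sites away from the promoter. In fibroblasts, such elements are often bound by AP-1, dimers of the FOS and JUN families, and by TEAD proteins, the DNA-binding partners of YAP and TAZ, whereas CTCF binds at insulators and at the anchors of chromatin loops.

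The sequence of the middle 200 bases is shown for 5 first intron sites as examples of the AP-1, CTCF and TEAD matches that were compared with later introns. The bases are from the plus strand of mm10, written 5′ to 3′. Capitals mark matches to the AP-1 consensus (TGANTCA) in the 3 widest of the 17 sites that share the highest number of matches, which are located in the first introns of Stim2 (chr5:54034971-54035170), Tmem266 (chr9:55362092-55362291) and Fam19a5 (chr15:87654635-87654834). In Clmp (chr9:40757356-40757555), capitals mark the CTCF match of the widest site on these chromosomes that contains one. In Pknox1 (chr17:31574702-31574901), they mark the TEAD consensus (GGAATG) in the site with the most matches.
Stim2: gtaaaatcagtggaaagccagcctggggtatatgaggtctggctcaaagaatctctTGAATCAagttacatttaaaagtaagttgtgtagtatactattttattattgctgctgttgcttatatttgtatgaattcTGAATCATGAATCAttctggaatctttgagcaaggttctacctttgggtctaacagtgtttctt
Tmem266: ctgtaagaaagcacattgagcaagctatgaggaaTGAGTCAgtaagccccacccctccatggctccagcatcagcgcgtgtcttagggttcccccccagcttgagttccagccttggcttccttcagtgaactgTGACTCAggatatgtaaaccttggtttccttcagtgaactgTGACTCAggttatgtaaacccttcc
Fam19a5: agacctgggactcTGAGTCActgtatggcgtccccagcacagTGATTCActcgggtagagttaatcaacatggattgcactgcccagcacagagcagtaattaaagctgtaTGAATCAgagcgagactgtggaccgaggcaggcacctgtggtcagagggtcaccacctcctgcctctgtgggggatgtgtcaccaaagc
Clmp: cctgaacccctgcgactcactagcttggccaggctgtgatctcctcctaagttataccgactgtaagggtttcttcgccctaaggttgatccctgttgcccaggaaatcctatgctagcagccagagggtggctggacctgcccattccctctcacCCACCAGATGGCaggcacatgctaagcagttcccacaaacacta
Pknox1: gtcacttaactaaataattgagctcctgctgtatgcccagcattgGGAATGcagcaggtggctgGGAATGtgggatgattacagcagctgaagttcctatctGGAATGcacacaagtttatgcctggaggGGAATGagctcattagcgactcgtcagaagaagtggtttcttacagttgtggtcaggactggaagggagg

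Each of the 3 AP-1 sequences contained 3 matches. In the site of Stim2, a calcium sensor of the endoplasmic reticulum, all matches read TGAATCA and a pair of them lay directly side by side. The site of Tmem266 contained TGAGTCA and its reverse complement TGACTCA. That of Fam19a5 contained TGAGTCA as well as TGATTCA and its reverse complement TGAATCA. The sites measured 1661, 1572 and 1491 bp and were located 36.5, 35.2 and 110.4 kb downstream of the transcript start, respectively. Among all 14284 first intron sites, 17 held 3 matches to AP-1, 262 held 2 and 2615 held 1. Of the 37189 later intron sites compared, 46 held 3, 729 held 2 and 6926 held 1, and a few held 4 or more. The site of Clmp, which encodes an adhesion protein of the plasma membrane, measured 2200 bp and lay 71.4 kb from the start. The site of Pknox1, a homeodomain transcription factor, measured 681 bp and held 4 TEAD matches, all on the plus strand. It was the only first intron site with 4.

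The 14284 sites were distributed over 4404 genes, compared to 19368 coding genes with at least 1 intron on these chromosomes. Of the genes with a site, 1887 or 42.9% had exactly 1, 1677 had 2 to 4, 571 had 5 to 9 and 269 had 10 or more. The latter accounted for 31.1% of the pairs of gene and site. Because some first introns overlap, 159 sites were assigned to 2 or more genes and 286 were also located in a later intron of another gene. In all, 599 sites or 4.19% lay within the span of another coding gene, and 222 had their middle in an exon of some transcript. The median site lay 22.6 kb from the start of its own transcript but 10.2 kb from the nearest start of any transcript. Neighbouring sites of the same intron were a median of 5710 bp apart, with 19.3% of the steps at 2 kb or less and 9.11% above 20 kb.

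The number of sites followed the length of the intron. For each intron, the bases more than 1 kb from every transcript start were counted, which is referred to as the eligible length. The 890 first introns with 50 kb or more of eligible length were a small part of the 19368 first introns but carried 48.0% of the pairs. Across the 10939 genes with at least 1 kb of eligible length, Spearman's rho of sites and length was 0.672, given as a description over genes that are not independent. Among the 4172 first introns with at least 10 kb, the median density was 0.0716 sites per kb with quartiles of 0.00389 and 0.123, and 24.9% of them carried no site.

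**Figure D1:**
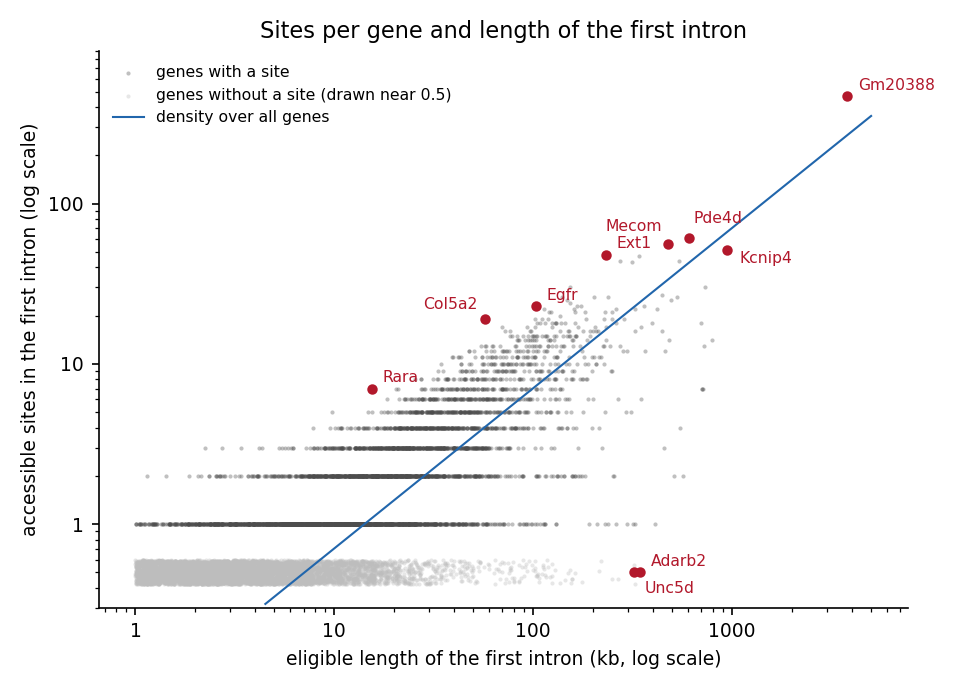
Number of accessible sites in the first intron of each gene (y axis, log scale) against the eligible length of this intron in kb (x axis, log scale) for the 10939 genes with at least 1 kb. Each dot is a gene, genes without a site are drawn near 0.5, red dots are named genes and the line is the density over all these genes (0.0705 sites per kb), above which Ext1, Col5a2, Egfr and Rara lie while Adarb2 (345.2 kb) and Unc5d (320.9 kb) carry no site.

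To address whether first introns differ from the rest of the gene, the density of sites was compared with that of later introns in the genes with 3 or more exons. Bases that belong to a first intron of one gene and to a later intron of another were left out. First introns carried 13394 sites on 185.2 Mb of eligible sequence, or 0.0723 sites per kb. The later introns carried 37189 sites on 587.6 Mb, or 0.0633 sites per kb. The density was thus 1.14 times higher in first introns (95% interval 1.12 to 1.17, two-sided exact conditional binomial test, p = 3.39e-39). The test pooled the sequence of all genes and treated sites as independent, so it does not compare introns within a gene. The ratio exceeded 1 on 17 of the 19 autosomes, with a mean of 1.14 ± 0.115 (SD over chromosomes). The lowest ratio was found on chromosome 5 (0.968) and the highest on chromosome 8 (1.45).

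The value on chromosome 8 rested in part on Gm20388, a gene model with a first intron of 4384 kb over which 73 other coding genes are annotated. This single intron held 468 sites, or 3.28% of all first intron sites, and 207 of these were within the span of another coding gene. Without Gm20388 the ratio on chromosome 8 was 1.18 (1.08 to 1.30), and that over all autosomes was 1.13 (1.11 to 1.15).

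The excess in first introns varied with the distance to the gene start, but differently for the own start of the gene and for the nearest start of any transcript. At 2 to 5 kb from the 5′ end of the transcript, the density was 0.0509 sites per kb in first and 0.0397 in later introns, a ratio of 1.28 (1.16 to 1.42). At 10 to 20 kb the ratio was highest with 1.33 (1.27 to 1.40), from 0.0865 and 0.0649 sites per kb, respectively. In the bins of 2 to 5, 5 to 10, 10 to 20 and 20 to 50 kb the difference remained after Benjamini-Hochberg correction over the 7 bins, with the largest p being 1.01e-06 (two-sided exact conditional binomial tests). At 1 to 2 kb the ratio was 1.16 (0.925 to 1.47, exact p = 0.205), based on only 94 sites in later introns. No difference was detected at 50 to 100 kb (1.02, 0.971 to 1.07, exact p = 0.403) and above 100 kb (1.01, 0.957 to 1.06, exact p = 0.798). Over all bins, the Mantel-Haenszel ratio was 1.16 (1.14 to 1.19), with chromosomes ranging from 0.967 to 1.49 (1.16 ± 0.118, SD, 18 of 19 above 1). At any single distance from its own start, a gene has either its first or a later intron. These ratios therefore mainly compare different genes with each other and not the introns within a gene.

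By distance to the nearest start of any transcript, an alternative chosen after seeing the data, the pattern was another. At 2 to 5 kb the ratio was 0.974 (0.930 to 1.02), from 0.0665 and 0.0682 sites per kb, so that the excess in this bin was not found. It was 1.20 (1.15 to 1.25) at 5 to 10 kb, 1.20 (1.16 to 1.26) at 10 to 20 kb and 1.15 (1.10 to 1.20) at 20 to 50 kb. In contrast to the distance from the own start, first introns were also denser at 50 to 100 kb (1.12, 1.03 to 1.20, exact test, corrected p = 0.00735) and above 100 kb (1.15, 1.01 to 1.30, exact test, corrected p = 0.0409). The Mantel-Haenszel ratio over these bins was 1.13 (1.10 to 1.15).

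**Figure D2:**
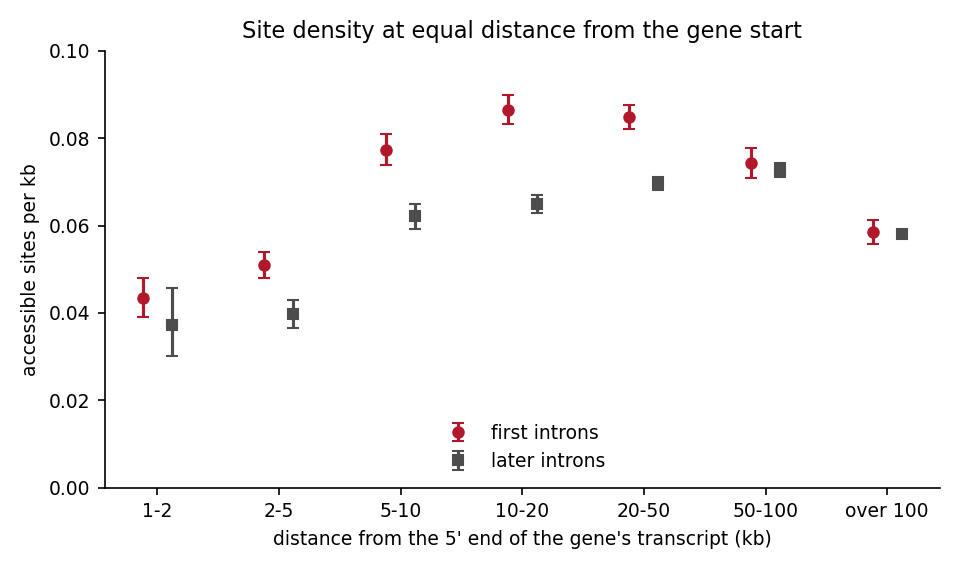
Accessible sites per kb of eligible sequence (y axis) in first introns (red circles) and later introns (grey squares) of the same genes by distance from the 5′ end of the transcript in kb (x axis). Bars are exact 95% Poisson intervals, which cover counting error only, and by this distance, unlike by that to the nearest start of any transcript, the classes are apart between 2 and 50 kb and close to each other beyond 50 kb.

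In both classes the density was low next to the gene start. It increased from 0.0433 sites per kb at 1 to 2 kb to 0.0865 at 10 to 20 kb in first introns and declined to 0.0584 above 100 kb. A site has to lie with its whole width outside the window of 1 kb, which limits the sites that can be counted in the first bins of both classes. When the eligible sequence started at 1 kb plus 0.5 times the median width of a site, the Mantel-Haenszel ratio was 1.15 (1.12 to 1.17).

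The comparison within genes gave another picture. When each of the 11999 genes with eligible sequence in both classes formed its own stratum, the ratio was 1.02 (0.997 to 1.05, Mantel-Haenszel), an alternative chosen after seeing the data. A higher density in the first intron was found in 2912 genes and a lower one in 4720, while 4367 genes had no site in either class. These counts depend on length, since a short first intron without a site counts as lower wherever a later intron has a site. Only 2.95% of the 3799 first introns below 2 kb of eligible length carried a site. Among the 5040 genes with at least 5 kb in both classes the ratio was 1.05 (1.02 to 1.07), with 2142 genes higher and 2282 lower in the first intron. In the 1794 genes with at least 20 kb it was 1.07 (1.04 to 1.10), with 909 genes higher and 823 lower. With genes as strata, the ratio exceeded 1 on 11 of 19 chromosomes (1.02 ± 0.0559, SD). First and later introns of the same gene resembled each other, with a Spearman's rho of 0.444 between their densities across the 1794 long genes, given as a description. Within genes, the ratio thus lay between 1.02 and 1.07, compared to 1.14 for the pooled sequence, to which genes contribute different amounts of first and later introns.

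The relation to later introns also changed with the length of the intron. Below 2 kb of eligible length, first introns carried 0.0355 sites per kb compared to 0.0563 in later introns, a ratio of 0.630 (0.519 to 0.759). The ratio was 0.732 (0.659 to 0.811) at 2 to 5 kb, 0.937 (0.872 to 1.01) at 5 to 10 kb and 1.10 (1.04 to 1.16) at 10 to 20 kb. It reached 1.28 (1.23 to 1.33) at 20 to 50 kb, where first introns had 0.0873 and later introns 0.0685 sites per kb. Of the first introns in this class, 84.0% carried at least 1 site, compared to 75% of the later introns. Above 100 kb, the ratio was 1.14 (1.09 to 1.19), with 0.0586 and 0.0516 sites per kb. Short first introns lie next to the window around the gene start, and short later introns mostly do not, so that length and position cannot be told apart in the shortest classes.

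When introns were counted from the gene start, the density declined with the intron number. It was 0.0723 sites per kb in the first intron, 0.0679 in the second, 0.0649 in the third and 0.0640 in the fourth. From the fifth intron on, it stayed between 0.0602 and 0.0620 sites per kb. Compared to second introns only, first introns still had a higher density (ratio 1.06, 1.04 to 1.09, two-sided exact conditional binomial test, p = 8.15e-06).

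Within the first intron, sites were less frequent between the first exon and the midpoint of the intron. This 5′ side contained 6051 of the 13394 sites or 45.2% (95% Wilson interval 44.3 to 46.0%), whereas it held 48.3% of the eligible bases (two-sided exact binomial test, p = 3.74e-13). The share of sites was below the share of bases on all 19 autosomes, by 3.21 ± 1.49 percentage points (SD). The window around the gene start affects this side more than the other. With eligible sequence from 1 kb plus 0.5 times the median width, the shares were 45.1% of sites and 47.8% of bases (exact test, p = 2.25e-10).

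Neither the coding content of exon 1 nor further transcript starts in the intron went along with a large change in density. First introns that follow a wholly noncoding exon 1 carried 0.0694 sites per kb, and those that follow an exon with coding sequence 0.0706. First introns with another annotated start carried 0.0704 sites per kb and those without 0.0701.

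Genes with a first intron site more often had a site at their promoter. Among genes with at least 1 kb of eligible length, 3921 of 4366 genes with a first intron site (89.8%, 88.9 to 90.7%) had an accessible site within 1 kb of one of their starts, compared to 4705 of 6573 genes without (71.6%, 70.5 to 72.7%). The odds ratio was 3.50 (Fisher's exact test, two-sided, p = 1.37e-124). For first introns of at least 10 kb the shares were 93.1 and 70.7%, and with classes of first intron length as strata the odds ratio was 2.32 (2.04 to 2.63). The share was higher for genes with a first intron site in each of the 7 length classes. It differed little at 2 to 5 kb, with 77.3 and 72.3%, whereas above 100 kb it was 89.5% for the 304 genes with a site and 44.7% for the 38 genes without.

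Accordingly, the density differed between these genes. Genes with a promoter site carried 0.0776 first intron sites per kb, whereas genes without carried 0.0278. Their later introns carried 0.0680 and 0.0299 sites per kb, respectively. The ratio of first to later introns was 1.14 (1.12 to 1.17) in genes with a promoter site and 0.930 (0.850 to 1.02) in genes without.

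By their width, first intron sites resembled other sites away from promoters. Their median width was 568 bp (559 to 578 bp, from order statistics), the same as that of later intron sites (562 to 574 bp), and quartiles were 337 and 874 bp. Distal sites outside of transcripts had a median of 569 bp and sites within 1 kb of a start a median of 1060 bp. Sites of 1000 bp or more accounted for 17.5% (16.9 to 18.2%) in first and 16.5% (16.2 to 16.9%) in later introns (Fisher's exact test, two-sided, p = 0.00928). Without chromosomes 10 and 15, which carry more sites per Mb than the other autosomes, this difference no longer passed the threshold (odds ratio 1.06, exact p = 0.0517). The median width of first intron sites was 449 bp at 1 to 2 kb from the start, 602 bp at 20 to 50 kb and 577 bp above 100 kb. Only sites wholly outside the window of 1 kb were included, so the rule itself limits the width at 1 to 2 kb.

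The widest first intron site measured 3362 bp (chr11:69408538-69411899). It was located in the intron of 4.75 kb of Kdm6b, which encodes a demethylase of histone H3 lysine 27, with its middle 3.46 kb from the start. It was the only one of the 3 widest sites near a CpG island, and no site was found within 1 kb of an annotated start of Kdm6b. The next widest were a site of 2886 bp (chr15:51853175-51856060) in Eif3h, a subunit of translation initiation factor 3, and a site of 2841 bp (chr11:76341163-76344003) in Nxn, which encodes nucleoredoxin. Nxn carried 21 sites in its first intron of 120.1 kb, with widths from 211 bp.

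CpG islands were rare at first intron sites but more frequent than at later intron sites. An island within 1 kb of the middle was found for 186 sites or 1.39% (1.20 to 1.60%), compared to 0.648% (0.571 to 0.735%) in later introns (odds ratio 2.16, Fisher's exact test, two-sided, p = 2.13e-14). The share was 22.0% at 1 to 2 kb from the start, 3.46% at 2 to 5 kb and 0.968% at 5 to 10 kb, was lowest at 50 to 100 kb with 0.0527% and was 0.995% above 100 kb. With a window of 3 kb around transcript starts, the odds ratio was 0.938 (exact p = 0.743). At the edge of the window of 1 kb, the 768 included sites that reached to within 500 bp of it had a median width of 533 bp and an island in 14.2%. The 785 first intron sites that were left out but reached to within 500 bp of this edge from the other side had a median width of 512 bp and an island in 27.3%. The median GC content of the middle 200 bases was 45.5% in first and 45.0% in later introns, and 14.5 and 15.7% of these bases were repeats, compared to 28.4 and 28.6% of all eligible bases.

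Matches to consensus sequences of 10 families of transcription factors were searched on both strands of the middle 200 bases. A match describes the sequence and does not show binding. AP-1 (TGANTCA) was found in 20.5% (19.8 to 21.2%) of first intron sites and 20.7% (20.3 to 21.2%) of later intron sites. In stretches of 200 bases of first introns outside of sites, 5.61% of 847508 held a match, and 18.9% of all autosomal sites did. RUNX (TGTGGT) was present in 20.6% of first and 21.3% of later intron sites, compared to 14.7% of the stretches and 19.4% of all sites. No difference between first and later introns was detected for either motif (odds ratios 0.986 and 0.954, p = 0.715 and 0.121 after Benjamini-Hochberg correction over the 10 motifs, two-sided exact tests after Fisher). With classes of intron length as strata, the odds ratio of AP-1 was 0.928 (0.881 to 0.977), and with genes as strata it was 1.03 (0.966 to 1.10). The AP-1 share was lowest at 1 to 2 kb from the start with 14.1% and ranged from 19.6 to 21.4% in the bins beyond.

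TEAD (GGAATG) was slightly more frequent in first intron sites, with 18.1% (17.4 to 18.7%) compared to 16.7% (16.3 to 17.1%) in later introns. The odds ratio was 1.10 (exact test, corrected p = 0.00120), and the share was higher in first introns on 15 of 19 chromosomes. The background was 10.3% of stretches in introns of either class and 16.3% of all sites. With classes of intron length as strata, the odds ratio was 1.02 (0.967 to 1.08). Within genes it was 1.11 (1.03 to 1.19). KLF/SP (GGGCGG) was found in 3.56% of first and 2.97% of later intron sites (odds ratio 1.21, exact test, corrected p = 0.00288), compared to 1.91% of stretches and 7.74% of all sites, but the odds ratio was 1.00 (0.858 to 1.17) with genes as strata and 1.05 (0.940 to 1.18) with bins of GC content as strata.

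The other motifs except CTCF were less frequent and did not pass the threshold after correction, although ETS and EGR did with classes of intron length as strata (odds ratio 2.13 for both). CEBP (TTGCNNCAA) was found in 1.81% of first and 1.76% of later intron sites, compared to 1.71% of stretches and 1.82% of all sites, and CArG, bound by SRF, in 1.41 and 1.47%, compared to 1.06% of stretches and 1.40% of all sites. ETS (CCGGAAGT) was found in 0.239 and 0.145%, compared to 0.115% of stretches and 0.465% of all sites. EGR (GCGNGGGCG) was found in 0.142 and 0.0968%, compared to 0.0419% of stretches and 0.860% of all sites. The full palindrome of NFI was present in 8 first intron and 12 later intron sites, 0.0122% of stretches and 0.0393% of all sites.

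CTCF had the lowest p of the 10 motifs, although its odds ratio was not the farthest from 1 (NFI, 1.85, with few sites and a corrected p of 0.290 from the exact test). Its consensus was found in 242 first intron sites or 1.81% (1.60 to 2.05%), but in 1218 later intron sites or 3.28% (3.10 to 3.46%), with 2.83% over all autosomal sites. This corresponds to an odds ratio of 0.543 (Fisher's exact test, two-sided, p = 8.6e-19 after Benjamini-Hochberg correction over the 10 motifs). The share was lower in first introns on 18 of 19 chromosomes, the exception being chromosome 18 with 2.80 and 2.51%. Over chromosomes, the ratio of the shares was 0.569 ± 0.175 (SD). The shares in intronic sequence outside of sites were 0.0491% of stretches in first and 0.0478% in later introns.

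The same was seen when starting from the motif. Eligible first intron sequence contained 858 matches to the CTCF consensus, or 4.63 per Mb, of which 376 or 43.8% (40.5 to 47.2%) were located in an accessible site. In later introns, 1880 of 3395 matches (5.78 per Mb) or 55.4% (53.7 to 57.0%) were accessible, which gave an odds ratio of 0.629 (Fisher's exact test, two-sided, p = 1.7e-09). Matches to AP-1 were accessible in 11.9% of cases in first and 10.4% in later introns (odds ratio 1.16, exact p = 3.01e-24), and those to TEAD in 7.01 and 5.73% (odds ratio 1.24, p = 1.23e-51). These values have to be read against all eligible bases, of which sites covered 1.16 times as large a share in first as in later introns irrespective of any motif. The odds ratios of AP-1, RUNX (1.13) and CEBP (1.18) were near this value, and whether those of other motifs exceeded it was not tested. Matches close to each other are not independent, and p-values treat them as such.

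The CTCF share increased with the intron number. It was 1.81% in the first, 2.18% (1.89 to 2.51%) in the second, 2.61% (2.21 to 3.07%) in the third and 3.36% (2.82 to 3.98%) in the fourth intron, and reached 4.12% (3.79 to 4.47%) from the eighth intron on. Expressed per sequence, CTCF sites numbered 1.31 per Mb in first introns and 2.51 per Mb from the eighth intron on, while sites with AP-1 numbered 14.8 and 12.1 per Mb, respectively.

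**Figure D3:**
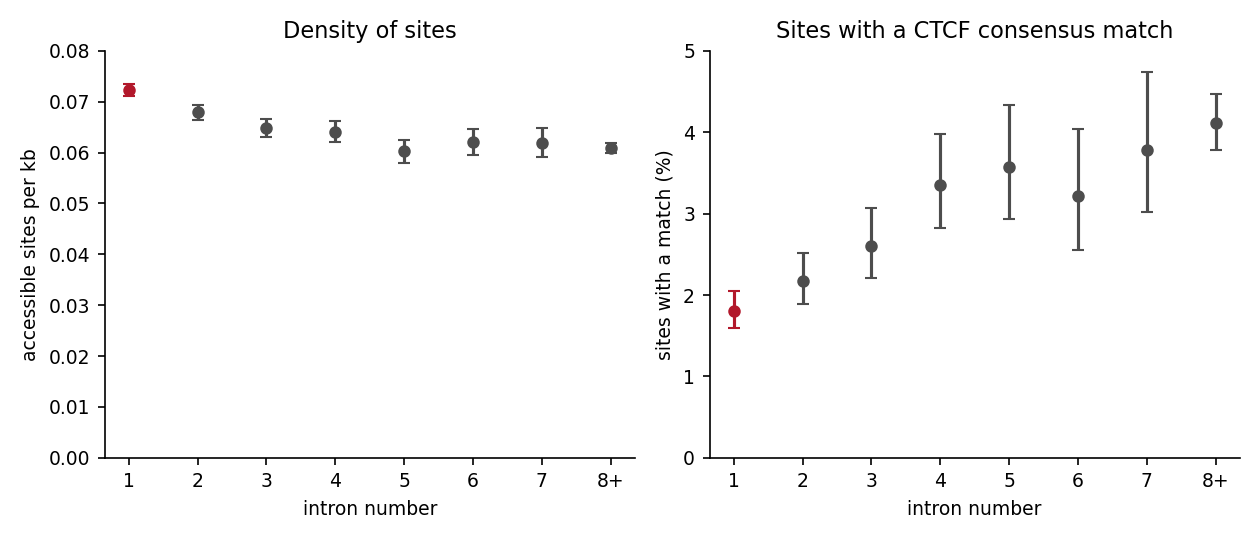
Left, accessible sites per kb of eligible sequence (y axis) by intron number (x axis) with exact 95% Poisson intervals. Right, percentage of these sites with a CTCF consensus match in the middle 200 bases (y axis) by intron number (x axis) with 95% Wilson intervals. First introns are red, and the density declines from 0.0723 to 0.0609 sites per kb while the CTCF share increases from 1.81 to 4.12%.

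The length of the intron moved with the CTCF share in both classes. In later introns it was 6.82% (6.02 to 7.72%) below 2 kb, 2.32% (1.99 to 2.70%) at 20 to 50 kb and 1.87% (1.54 to 2.27%) above 100 kb. In first introns it was 2.77% (1.80 to 4.23%) at 5 to 10 kb, 1.64% (1.29 to 2.08%) at 20 to 50 kb and 1.93% (1.54 to 2.42%) above 100 kb. Only 35 first intron sites lay in introns below 2 kb, of which 5.71% (1.58 to 18.6%) had a match. With length classes as strata, the odds ratio was 0.779 (0.670 to 0.904), and with length and distance to the nearest start together it was 0.760 (0.650 to 0.888). It was 0.525 (0.456 to 0.603) by distance to the nearest start alone, 0.503 (0.416 to 0.609) with genes as strata, 0.524 (0.456 to 0.602) by GC content and 0.549 (0.478 to 0.632) by site width. These stratified odds ratios were Mantel-Haenszel estimates chosen after seeing the data. The odds ratio was closest to 1 where intron length was among the strata, and it was below 1 in each of these estimates.

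**Figure D4:**
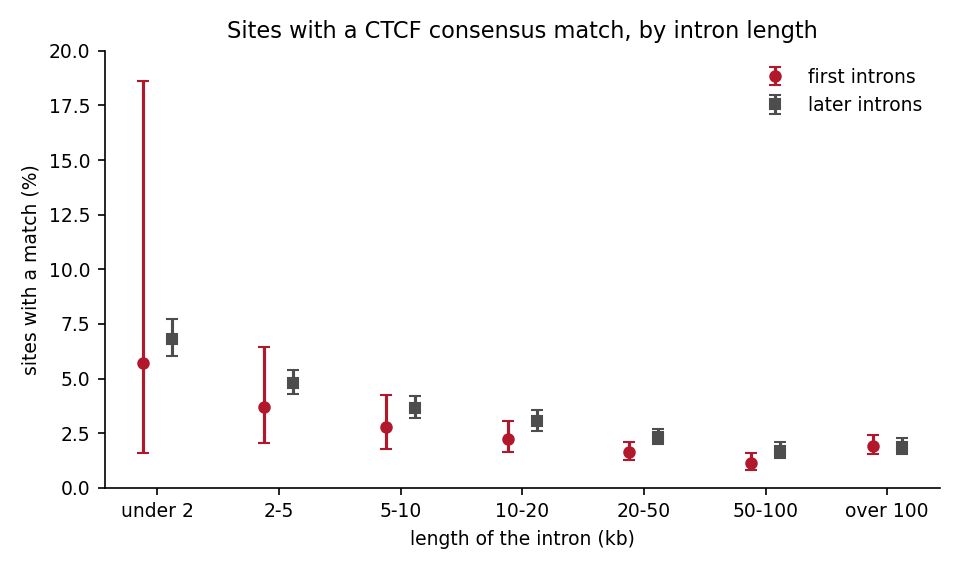
Percentage of accessible sites with a CTCF consensus match (y axis) by length of the intron in kb (x axis) in first introns (red circles) and later introns (grey squares). Bars are 95% Wilson intervals, and the share declines with length in later introns from 6.82 to 1.87%. First introns lie below later introns in each class up to 100 kb, but the intervals of first and later introns overlap in every class.

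By distance to the nearest start of any transcript, the CTCF share was lower in first introns up to 100 kb. The difference was largest at 5 to 10 kb, with 1.22% (0.889 to 1.67%) in first and 3.70% (3.28 to 4.16%) in later introns. At 50 to 100 kb the share was 1.75% in first and 2.61% in later introns, and no difference was detected (Fisher's exact test, two-sided, p = 0.173). Above 100 kb it was 2.03% in 296 first intron sites and 1.43% in 1752 later intron sites (Fisher's exact test, two-sided, p = 0.438). The orientation of the match relative to the gene showed no preference, with 121 matches on the strand of the gene and 119 on the other in first introns (two-sided exact binomial test, p = 0.949). CTCF and AP-1 rarely occurred together. In first introns 4.96% of sites with a CTCF match also had an AP-1 match, compared to 20.8% of the other sites (odds ratio 0.199, Fisher's exact test, two-sided, p = 5.61e-12), and in later introns these shares were 6.65 and 21.2%.

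The genes with the most sites were Gm20388 with 468, described above, and Pde4d, a phosphodiesterase of cyclic AMP, with 61 sites in a first intron of 623.3 kb (0.0999 sites per kb). These ranged from 191 to 1779 bp in width and were spread from 23.4 to 619.6 kb from the start. Mecom, which encodes the transcription factor EVI1, had 56 sites, and Kcnip4, a partner of potassium channels, had 51 in an intron of 1015 kb. Ext1, an enzyme of heparan sulfate synthesis, had 48 sites at 0.206 per kb, the highest density among these 10 genes. Magi1, a scaffold protein at cell junctions, had 47. Rora, a nuclear receptor, and Cmss1 had 44 each, Maml2, a coactivator of Notch, had 43 and Cadm2, an adhesion protein, had 30. Of the 44 sites of Cmss1, 38 lay within the span of Filip1l, which is annotated inside this intron. For Pde4d, Mecom, Kcnip4, Ext1, Magi1, Rora and Cadm2, no other coding gene overlapped the first intron.

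Later introns of these genes had similar densities in some cases but not in others. In Pde4d, Mecom and Ext1 the later introns carried 0.0915, 0.116 and 0.189 sites per kb, and the first introns 0.0999, 0.118 and 0.206. In Magi1, by contrast, the first intron had 0.139 sites per kb and the later introns 0.0633, so that it held 25.6 sites more than the density of its later introns would give. The other genes with a large excess were Gm20388 (105.6 sites), Cmss1 (30.7), Dip2c (19.8) and Kcnq3, a potassium channel, whose first intron carried 19 sites while 34.1 kb of later introns carried 0. The largest deficits were found for Gm42416, which had 7 sites where the density of its later introns would give 59.2, Kirrel3 (27 and 73.9), Ninj2 (15 and 58.8), Fam155a (2 and 44.7) and Pacsin1 (1 and 41.8). Of these, Ninj2 and Pacsin1 had only 1.69 and 2.06 kb of eligible later introns, and 61 other coding genes are annotated over the first intron of Gm42416. Most of these excesses and deficits rest on few later intron sites. Later introns held 4 sites in Gm20388, 1 in Cmss1 and 5 in Dip2c. Among the deficits they held 1 in Gm42416, 1 in Ninj2, 2 in Fam155a and 2 in Pacsin1, but 15 in Kirrel3.

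The highest density among first introns of at least 10 kb was seen for Rara, the retinoic acid receptor alpha, with 7 sites on 15.4 kb or 0.454 per kb. The later introns of Rara were also dense with 0.255 sites per kb. It was followed by Ppp2cb, a catalytic subunit of protein phosphatase 2A, with 0.399 and Manbal with 0.383 sites per kb. Wnt4, a secreted signalling protein, the membrane-binding annexin Anxa6, the semaphorin Sema3f, the focal adhesion proteoglycan Sdc4 and the calcium channel Trpv4 each had 4 sites, corresponding to 0.347 to 0.377 per kb. Rap1b, a small GTPase, had 7 sites at 0.344 and Akap1, an anchor of protein kinase A at mitochondria, had 5 at 0.339 per kb. No site was found in the later introns of Ppp2cb, Manbal, Sema3f, Sdc4 and Akap1, which offered 2.50 to 16.7 kb.

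At the other end, the 5 longest first introns without a site offered 248.8 to 345.2 kb. Adarb2, an RNA editing family member of the brain, had 345.2 kb of eligible first intron, the synaptic adhesion protein Sdk1 325.4 kb, the netrin receptor Unc5d 320.9 kb and the glutamate receptor Grm7 265.4 kb. The fifth was Tshz2, a zinc finger transcription factor, with 248.8 kb. Among these, only Unc5d had a promoter site. Their later introns held 3 sites in Adarb2, 2 in Grm7 and 0 in the others.

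The density was further described for 14 lists of genes, which carry no test since they were chosen with earlier results of these data known. All 10939 genes with at least 1 kb of eligible first intron together had 0.0705 first intron sites per kb and 0.0636 in their later introns. Of them, 39.9% had at least 1 site and the median gene had 0. A group of 7 lists of genes typical for fibroblasts lay above the first intron density of all genes. The later introns of these lists, with 0.0870 to 0.175 sites per kb, also lay above those of all genes. The extracellular matrix list had 46 sites in 14 genes with enough sequence, or 0.203 per kb (exact Poisson interval 0.149 to 0.271), and 0.175 per kb in later introns. The median gene of this list had 0.174 sites per kb. Col5a2 carried 19 sites on 57.4 kb, although its later introns were denser with 0.426 per kb. Col5a1 carried 7 and Col4a1 6, all of them being collagen chains.

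The actin cytoskeleton list had 0.175 sites per kb (0.139 to 0.217) and 0.144 in later introns. Here, Actn1 (alpha-actinin) had 12 sites and Cald1 (caldesmon) 11. Genes of the Hippo pathway reached 0.159 per kb (0.114 to 0.216), with 12 sites in Tead1 and 6 each in Tead4 and in Nf2, the tumor suppressor merlin. Integrins and focal adhesion had 0.133 per kb (0.103 to 0.170). In this list Parva, which links integrins to actin, had 15 sites in its first intron and 0 on 41.5 kb of later introns, and the tensins Tns1 and Tns3 had 8 and 6 sites.

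TGF-beta and BMP signalling had 0.123 sites per kb (0.0926 to 0.160), and 16 of 18 genes carried at least 1. The transducer Smad3 had 14 sites, the repressor Ski 11 and the receptor Bmpr1a 5. The receptor tyrosine kinases of fibroblasts had 0.125 per kb (0.0992 to 0.155). Egfr carried 23 sites on 103.7 kb, or 0.222 per kb compared to 0.109 in its later introns, and Ror2 and Ror1 carried 20 and 17. Mesenchymal transcription factors had 0.134 per kb (0.0977 to 0.179) but 0.0870 in later introns, with sites in 7 of 14 genes. Zeb1 had 13, Prrx1 11 and Twist2 7 of the 45 sites, while the median gene of the list had only 0.0362 per kb. Promoter sites were present in 91.7 to 100% of the genes in these 7 lists. This compares to 72.4% of all 20722 coding genes, those with short or no first introns included. However, they were also present in 100% of the cell cycle and replication list, 93.8% of the KMT2 list and 88.2% of the epithelial list.

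**Figure D5:**
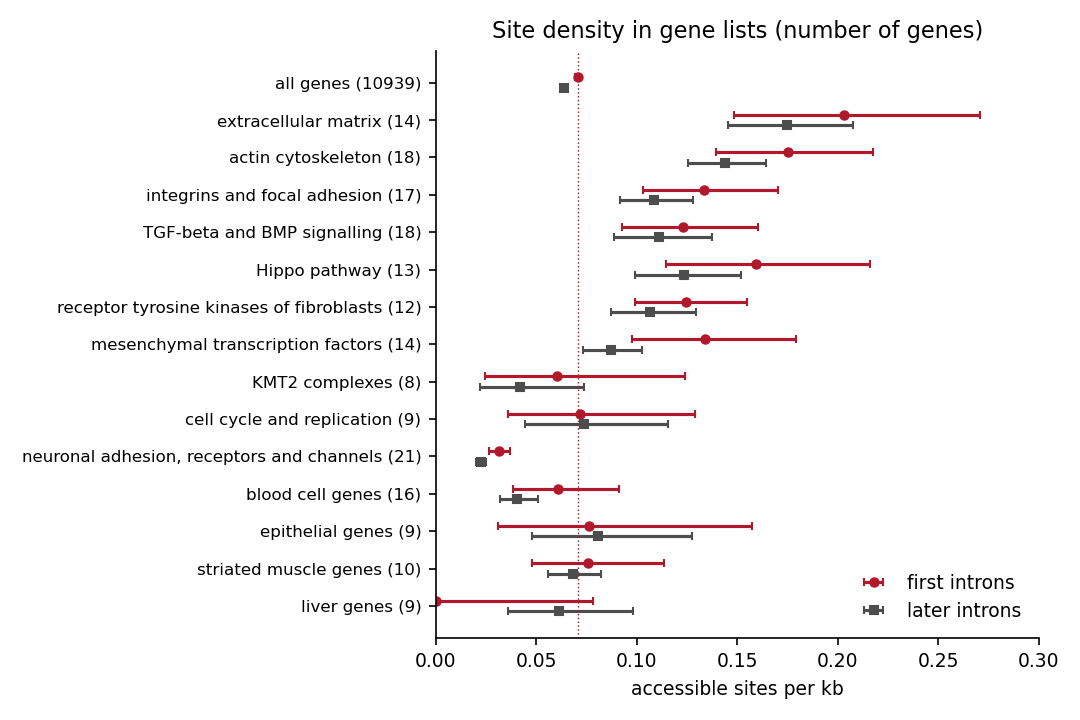
Accessible sites per kb (x axis) in first introns (red circles) and later introns (grey squares) of all genes and of 14 gene lists (y axis, with the number of genes that have at least 1 kb of eligible first intron). Bars are exact 95% Poisson intervals, which cover counting error only, and the 7 lists from extracellular matrix to mesenchymal transcription factors lie above the dotted line, the first intron density of all genes (0.0705 sites per kb).

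The lists of genes used in other cell types and that of cell cycle and replication lay near or below the value of all genes. Neuronal adhesion, receptors and channels had the longest first introns with a median of 145.3 kb, but only 0.0313 sites per kb (0.0263 to 0.0369) and 0.0223 in later introns. Their 142 sites included 51 in Kcnip4, 25 in the potassium channel Kcnd2 and 16 in the lipoprotein receptor family member Lrp1b. Liver genes had 0 sites on 47.3 kb of first introns, which allows up to 0.078 sites per kb (exact Poisson interval), and 13.3% had a promoter site. Blood cell genes had 0.0608 sites per kb (0.0385 to 0.0912), among them the kinase gene Lyn with 7, the T cell receptor subunit Cd247 with 6 and the adaptor Fyb with 3. Striated muscle genes had 0.0758 per kb, with 9 sites each in the calcium channels Cacna1c and Ryr2 and 3 in Actn2. Epithelial genes had 0.0763 per kb, with 3 sites in Grhl2 and 1 each in Ehf and Lad1, and the site of Ehf was 2194 bp wide. For genes of cell cycle and replication the density was 0.0720, with 7 sites in the cyclin Ccnd3, 3 in the transcription factor E2f3 and 1 in the helicase subunit Mcm6.

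For the KMT2 complexes, the density was near that of all genes. Of the 16 genes on autosomes, 8 had at least 1 kb of eligible first intron and 5 of these held 7 sites, or 0.0603 per kb (0.0242 to 0.124). The methyltransferase Kmt2c had 2 sites of 409 and 1006 bp on 51.8 kb. Rbbp5, a subunit of the common core, had 2 narrow sites of 181 and 237 bp, 4.54 and 4.90 kb from its start. The core subunit Dpy30, the methyltransferase Kmt2a and the coactivator Ncoa6 had 1 site each of 207, 180 and 1395 bp. The first intron of Ash2l spans 0.506 kb and lies wholly within the window around its start, so that no site could be counted there, while its later introns held 2 sites.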

How the data were processed

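Fibroblasts were profiled by ATAC-seq in 10 libraries. According to the methods and the submitters' processing notes, the authors trimmed reads with Trim Galore, aligned them to mm10 with BWA, filtered with SAMtools, merged replicates with Picard MergeSamFiles and identified narrow peaks with MACS2 in modified nf-core code. Versions, the peak threshold, the Tn5 shift and how sites of different groups were joined are not given in the sources used here. The deposited list holds chromosome, start and end and no other measurement, signal or count, so depth per library is unknown. Starts were read as 0-based and are printed 1-based. Neither the list nor the methods state the convention, and the smallest gap of 1 bp between an end and the next start does not settle it.

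Introns were taken from GENCODE M21 on GRCm38, while the authors used M25. For each coding gene, the transcript with the longest coding sequence and then the longest span was used. Sequences and soft-masked repeats were from the NCBI genome GRCm38.p6. CpG islands were computed as segments of at least 200 bp outside repeats with a GC content above 0.5 and an observed to expected CpG ratio above 0.6. Density ratios carry exact conditional binomial or Mantel-Haenszel intervals, shares carry 95% Wilson intervals, and differences in shares were tested by two-sided Fisher's exact tests with a threshold of 0.05. Calculations were run in Python 3.11.15 with SciPy 1.17.1, NumPy 2.4.6 and Numba 0.67.0, plots were drawn with Matplotlib 3.10.9, and the density, odds and motif steps were tested on simulated data.

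The members, the gene lists and the tests were chosen with earlier results of these data known. Named genes were the 10 with the most first intron sites, the 10 densest first introns (at least 10 kb eligible and 3 sites), the 5 longest without a site, the 3 widest sites, the 3 genes with the most sites per list, the KMT2 genes with a site, and the 5 largest excesses and deficits relative to own later introns. Ash2l, the targeted gene, was added. Alternatives changed the start window, the sites, the transcript, the annotation, the bases, the genes, the chromosomes and the strata. For 1 list, 1 of these genes is not reported here.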

Additional observations from a re-analysis of the deposited data

Results flagged for a closer look

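The list contains 3841 sites outside of chromosomes 1 to 19. They lie outside of all comparisons made here and were not analysed further.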

How the results depend on the processing

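The density ratio of first to later introns was above 1 in 21 alternatives, from 1.02 to 1.18, and passed the threshold in each that carries a test except with genes as strata (1.02, 0.997 to 1.05). The ratio at equal distance stayed above 1 in 18 alternatives (1.06 to 1.30) and moved to 1.21 for bases covered by sites, which carries no test. The share on the 5′ side of the intron's midpoint (13 alternatives, 0.898 to 0.943 times the share of bases), the promoter site odds ratio (3 alternatives, 2.32 to 5.61) and the CTCF odds ratio (10 alternatives, 0.441 to 0.779) kept direction and side of the threshold.

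Sites of 1000 bp or more lost the threshold without chromosomes 10 and 15 (1.06, exact p = 0.0517), and CpG islands reversed with a start window of 3 kb (0.938). With this window ETS passed the threshold (1.94). When only sites from the median width upwards were used, the odds ratios were 1.08 for TEAD and 1.18 for KLF/SP, both no longer past the threshold, and reversed to 0 for NFI and 0.916 for CEBP. Over the whole site they reversed for AP-1 (1.03), RUNX (1.01) and CArG (1.06) and passed the threshold for EGR (1.68). CArG was 1.00 without chromosomes 10 and 15. With classes of intron length as strata, AP-1 (0.928), EGR (2.13) and ETS (2.13) passed the threshold and TEAD (1.02) lost it. With length and distance to the nearest start, AP-1 (0.936) and ETS (2.08) passed and TEAD (1.05) lost it. With genes as strata, AP-1 (1.03), RUNX (1.00) and CArG (1.04) reversed and KLF/SP (1.00) lost the threshold, as it did by GC content (1.05). The causes were not tested.

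The stratified fits, those without Gm20388, without readthrough genes and without introns that contain a start, and the padded window for the distance-matched and 5′ side results were chosen after seeing the data. No paired analysis was possible because sites come without values for single libraries, and leaving out replicates was not run for the same reason. Without counts per site, weak and strong sites weigh the same.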
